A study of Arabidopsis thaliana with 12 samples.

Results

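A group of 9 genes that control embryo identity and seed maturation in Arabidopsis thaliana was examined for open chromatin in seedlings. The genes were chosen by name: LEC1 (AT1G21970), LEC2 (AT1G28300), FUS3 (AT3G26790), ABI3 (AT3G24650), L1L (AT5G47670), DOG1 (AT5G45830), ABI4 (AT2G40220), ABI5 (AT2G36270) and WRI1 (AT3G54320). They make up 9 of the 27444 protein-coding genes annotated on chromosomes 1 to 5. For each, the Tn5 hypersensitive sites (THSs) that touched its window, meaning the gene with its 3 kb upstream and 1 kb downstream, were taken. This gave 20 of the 23226 THSs of the series.

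The study used ATAC-seq, in which the transposase Tn5 cuts and tags accessible DNA, to ask how Polycomb group (PcG) proteins affect accessibility. There were 12 samples of whole seedlings of the Col-0 ecotype at 10 days after germination (DAG), 2 for each of 6 genotypes, grown on MS agar plates with sucrose. WT carried no mutation. The 5 mutants were bmi1abc (atbmi1abc in the labels), ring1ab, clf28swn7 (clfswn in the labels), emf1-2 (emf1 in the labels) and lhp1. The first pair lacks or lowers the BMI1 or RING1 subunits that ubiquitinate histone H2A, clf28swn7 lacks the H3K27 methyltransferases CLF and SWN, and emf1-2 and lhp1 are mutated in the PcG-associated proteins EMF1 and LHP1. The ring1ab mutant is a weak, knockdown line. The bmi1abc, clf28swn7 and emf1-2 seedlings keep embryonic traits in their aerial part, so whole seedlings of these genotypes differ from WT in their organs as well as in PcG activity. The file read here is the authors' merged list of THSs, in which a region called in both replicates of any genotype is kept. It holds coordinates only. No region carries a genotype, a replicate, a signal or a read depth, so no value here has a spread over replicates. From this list no genotype could be compared with another, and the labelled tissue could not be checked against marker genes. The paper also describes supplementary data on the location of THSs by genotype, which were not used here.

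Seed maturation follows embryo patterning, and in it the embryo lays down oil and storage protein, acquires tolerance of drying and enters dormancy. LEC1, a histone-fold subunit of the NF-Y complex that binds CCAAT boxes, and the B3-domain proteins LEC2, FUS3 and ABI3, which bind RY elements, stand at the top of this programme. L1L is the closest relative of LEC1, ABI5 is a basic leucine zipper protein that binds abscisic acid (ABA) response elements, ABI4 and WRI1 have AP2 domains, and DOG1 sets the depth of dormancy. After germination the programme is kept silent by PcG proteins together with the B3-domain repressors VAL1 and VAL2, and seedlings without this silencing can form embryonic tissue.

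The sequences on which the description of the THSs turns are given first. They were read from the RefSeq genome assembly TAIR10.1, 5′ to 3′ along the strand of the gene. Distances count from the transcription start site (TSS), the outermost 5′ end of the gene record. Capitals mark matches on either strand to the RY core CATGCA, the G-box CACGTG, the ABRE core ACGTG, the CCAAT box CCAAT, the GA repeat GAGAGA or the telo-box AAACCCTA. The first 4 are motifs bound by seed regulators or their partners, and GA repeats and telo-boxes are known from plant DNA elements that recruit PcG proteins. A G-box reads the same on both strands and holds an ABRE core on each.

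The THSs nearest to a TSS are shown for FUS3 (chr3:9856213-9856506, minus strand, the 294 bases upstream of the TSS) and ABI5 (chr2:15207637-15207797, minus strand, the 161 bases upstream), because these THSs spanned the TSS.
FUS3: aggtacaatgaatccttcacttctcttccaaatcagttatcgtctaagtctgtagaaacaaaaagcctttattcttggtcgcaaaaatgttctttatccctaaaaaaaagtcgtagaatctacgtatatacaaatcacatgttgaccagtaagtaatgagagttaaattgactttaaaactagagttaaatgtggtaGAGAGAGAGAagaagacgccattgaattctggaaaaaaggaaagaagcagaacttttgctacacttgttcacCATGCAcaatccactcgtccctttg
ABI5: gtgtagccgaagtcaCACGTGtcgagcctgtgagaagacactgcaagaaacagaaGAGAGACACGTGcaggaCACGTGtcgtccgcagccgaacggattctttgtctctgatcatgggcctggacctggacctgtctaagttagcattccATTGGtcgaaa
Stretches of THSs are shown next from genes without a promoter THS, because they hold the G-boxes away from a TSS, the ABRE cores upstream of DOG1, and an RY core and GA repeat in DOG1. These are a stretch of the distal THS of LEC1 (chr1:7732213-7732339, minus strand), a stretch of the intronic THS of WRI1 (chr3:20116945-20117193, plus strand), a stretch of the upstream THS of DOG1 (chr5:18592994-18593114, minus strand) and the whole exonic THS of DOG1 (chr5:18590232-18590325, minus strand).
LEC1 distal: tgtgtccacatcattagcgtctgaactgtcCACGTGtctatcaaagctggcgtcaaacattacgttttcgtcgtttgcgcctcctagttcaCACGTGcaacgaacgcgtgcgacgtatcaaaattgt
WRI1 intron: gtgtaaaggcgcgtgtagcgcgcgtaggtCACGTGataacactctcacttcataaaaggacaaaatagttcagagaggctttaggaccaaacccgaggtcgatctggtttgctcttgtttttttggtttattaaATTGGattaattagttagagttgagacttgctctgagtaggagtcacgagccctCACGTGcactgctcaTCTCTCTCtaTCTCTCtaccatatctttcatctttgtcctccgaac
DOG1 upstream: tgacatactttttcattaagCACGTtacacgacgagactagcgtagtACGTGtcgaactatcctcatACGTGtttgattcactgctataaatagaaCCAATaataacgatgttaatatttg
DOG1 exon 2: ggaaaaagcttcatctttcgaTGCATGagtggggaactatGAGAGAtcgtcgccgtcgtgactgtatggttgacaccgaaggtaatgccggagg
For contrast, the 250 bases upstream of the TSS are shown for LEC1 (chr1:7729650-7729899, minus strand) and LEC2 (chr1:9899877-9900126, minus strand), where no THS was listed, with the longest GA run of LEC2 (chr1:9899847-9899864, minus strand), which lies just downstream of the TSS.
LEC1 promoter: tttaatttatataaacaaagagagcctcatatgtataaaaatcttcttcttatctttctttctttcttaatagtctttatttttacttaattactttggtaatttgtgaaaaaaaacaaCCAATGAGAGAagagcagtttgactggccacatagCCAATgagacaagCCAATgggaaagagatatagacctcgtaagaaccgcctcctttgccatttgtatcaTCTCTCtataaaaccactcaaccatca
LEC2 promoter: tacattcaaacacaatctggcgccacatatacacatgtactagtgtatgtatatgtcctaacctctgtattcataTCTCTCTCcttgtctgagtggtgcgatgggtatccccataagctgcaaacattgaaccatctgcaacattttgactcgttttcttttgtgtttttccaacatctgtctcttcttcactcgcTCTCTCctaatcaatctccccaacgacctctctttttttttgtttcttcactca
LEC2 GA run: TCTCTCTCTCTCTCTCTC

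All 9 regulators had at least 1 THS in their window, as did 78.7% of all protein-coding genes, while 21.3% had none. A promoter THS, meaning one that touched the TSS or the 1 kb before it, was present at FUS3, ABI4 and ABI5 only. These are 3 of 9 regulators, against 47.6% of all protein-coding genes. LEC2, L1L, DOG1 and WRI1 had no promoter THS but a THS over the gene (4 of 9, against 12.5%), and LEC1 and ABI3 had THSs in the flanks alone (2 of 9, against 18.6%). Counted without regard to the rest of the window, 6 of 9 regulators had a THS within 3 kb upstream or at the TSS (65.8% of all genes), 6 of 9 had a THS in the gene (44.3%), and 2 of 9, FUS3 and ABI5, had a THS that spanned the TSS (26.1%). With 9 genes and no spread over samples, these counts are a description and were not tested.

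**Figure D1:**
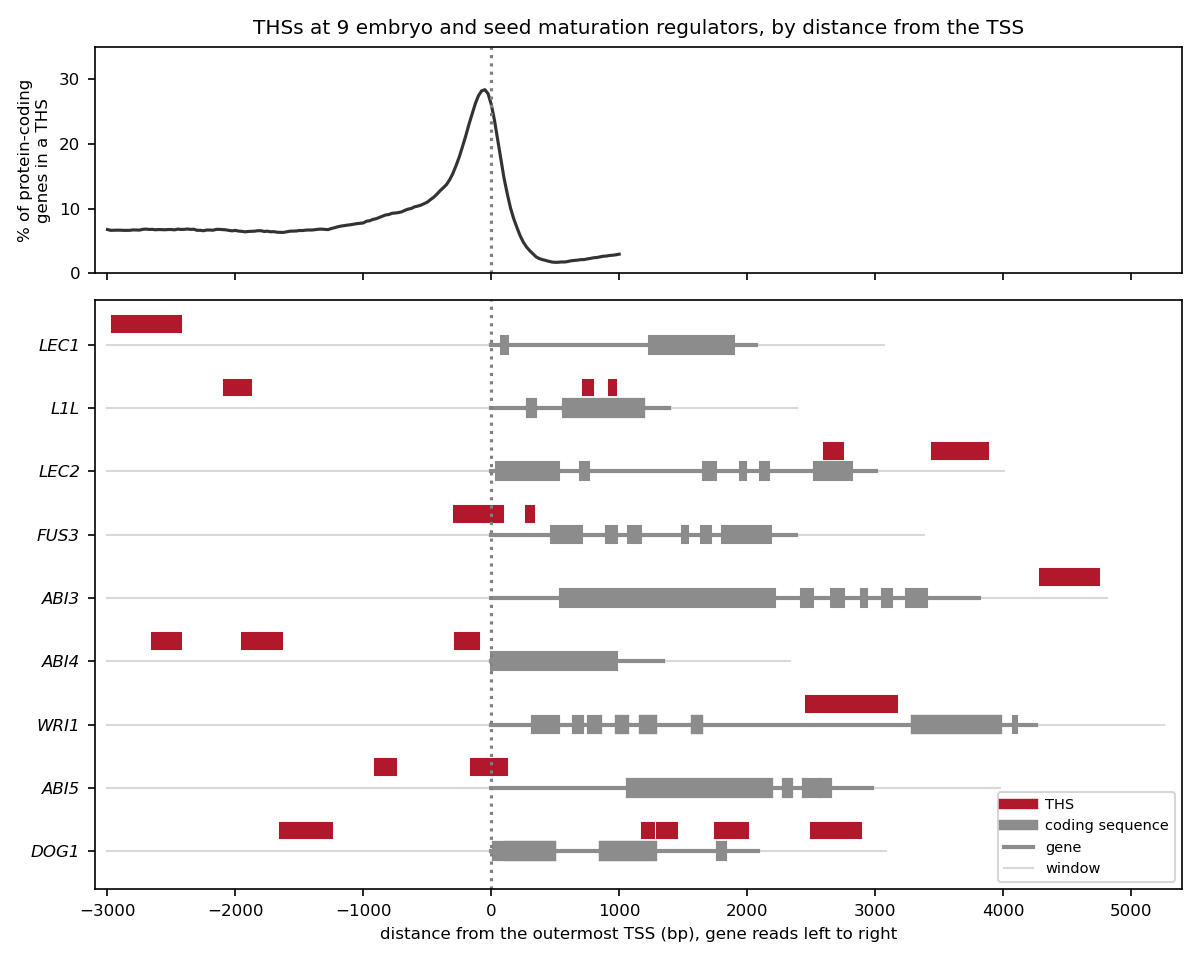
THSs (red) in the windows of the 9 regulators by distance in bp from the TSS, with coding sequence as thick and the gene as thin grey lines (lower panel), and the percentage of all protein-coding genes whose base at that distance lies in a THS (upper panel). All genes together peaked at 28.4% 50 bp upstream of the TSS, where 2 of the 9 regulators, FUS3 and ABI5, were in a THS.

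The number of THSs per window ran from 1 at LEC1, ABI3 and WRI1 through 2 at LEC2, FUS3 and ABI5 and 3 at L1L and ABI4 to 5 at DOG1. The median was 2, beside a median of 1 over all protein-coding genes. At least 2 THSs were found at 6 of 9 regulators (44.5% of all genes), 3 or more at 3 of 9 (18.4%), and 5 or more at DOG1 (1.30% of all genes). In bases, THSs covered 5587 of the 59340 bp of the 9 windows, or 9.42%. The share per window had a median of 8.36%, from 5.96% at ABI3 to 21.5% at DOG1, and over all genes the median was 5.76% with quartiles of 1.83% and 10.9%. DOG1 and ABI4 lay above the upper quartile, and the other 7 lay between the quartiles. Neither measure gives the strength of a THS, since the list holds no signal.

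**Figure D2:**
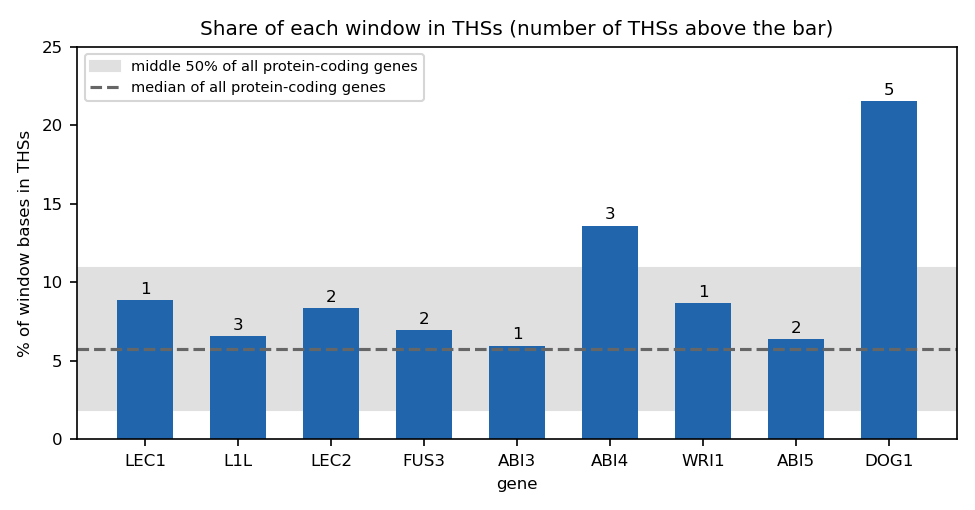
Percentage of the window bases in THSs at each regulator (bars, number of THSs above each bar), with the median (dashed line) and the middle 50% (grey band) of all protein-coding genes. DOG1 at 21.5% and ABI4 at 13.6% stand above the grey band.

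Of the 20 THSs, 7 lay wholly upstream of the TSS, 2 crossed it, 8 lay within the gene and 3 wholly downstream. They were 56 to 717 bp long with a median of 238.5 bp, beside 254 bp for all THSs. A total of 8 of the 20 (40%) were shorter than 200 bp, as were 36.0% of all THSs. Of these, 4 were shorter than 100 bp (6.55% of all THSs): 1 in FUS3, 2 in L1L and the exonic THS of DOG1. For 14 THSs the regulator itself had the nearest protein-coding TSS, and for the other 6 a neighbouring gene did. Their GC content had a median of 36.4%, beside 36.4% for all THSs, and ran from 25.3% to 51.8%.

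LEC1 (chr1:7727577-7729649, minus strand, 2073 bp), a master regulator of embryogenesis, had a single THS far upstream. It lay at chr1:7732076-7732612, 2427 to 2963 bp upstream of the TSS, and was 537 bp long. On the other side of the TSS the next THS was 8123 bp away, so the promoter, both exons and the intron held none. Among all protein-coding genes, 72.8% had a THS at least as near to the TSS. The THS was nearer to other genes than to LEC1: the TSS of PIP5K1, a phosphatidylinositol phosphate kinase gene, was 2049 bp from it and that of the transcribed pseudogene AT1G21973 was 932 bp from it. It held 2 G-boxes, at 2594 to 2599 and 2655 to 2660 bp upstream, as shown in the sequence of the distal stretch, and 26.4% of THSs of similar length (within 10%) held at least 1. The LEC1 promoter shown has 3 CCAAT boxes within 131 bp of the TSS, the motif that NF-Y complexes bind. Of all promoters (250 bp upstream and the first 50 bp of the gene), 4.62% held 3 or more and 51.6% held at least 1. The LEC1 promoter also had 2 overlapping RY cores 9 to 16 bp downstream of the TSS, and 1.94% of all promoters held 2 or more.

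L1L (NF-YB6 in the annotation; chr5:19314778-19316169, plus strand, 1392 bp), the close relative of LEC1, differed from it in layout. Its window held 3 THSs. The first, at chr5:19312685-19312902, lay 1876 to 2093 bp upstream and covered the divergent TSSs of NUDT2, a Nudix hydrolase gene, and AT5G47660, whose transcript runs up to 115 bp into L1L. The other 2 were small and lay in coding sequence of all 3 annotated transcripts, at chr5:19315497-19315575 (79 bp) and chr5:19315702-19315757 (56 bp), 126 bp apart. They began 719 and 924 bp downstream of the TSS. Their GC content was 48.1% and 51.8%, at the high end of the 20 THSs, and none of the 6 motifs was matched in any THS of L1L. An annotated L1L transcript starts 305 bp downstream of the outermost TSS, still upstream of both of these THSs.

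Among the B3-domain genes, only FUS3 had a THS at its promoter. FUS3 (chr3:9853828-9856212, minus strand, 2385 bp), which promotes storage protein accumulation and holds back leaf traits, had a THS of 385 bp that spanned the TSS at chr3:9856122-9856506. It ran from 294 bp upstream to 90 bp downstream. A second THS of 59 bp followed after a gap of 182 bp, at chr3:9855881-9855939, 273 to 331 bp downstream of the TSS. Both ended before the coding start at 464 bp, so inside the gene they covered 5′ UTR alone. The next THS upstream was 4763 bp from the TSS. In the FUS3 sequence, an RY core stood 20 to 25 bp upstream of the TSS, and 19.8% of THSs of similar length held at least 1. A GA run of 10 bp stood at 88 to 97 bp upstream, and 34.1% of THSs of similar length held a GA repeat. The 59-bp THS held 3 further GA matches, and 5.65% of THSs of similar length held any.

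LEC2 (chr1:9896867-9899876, minus strand, 3010 bp), which can trigger embryo formation when expressed in leaves, had its THSs at the opposite end. A THS of 147 bp at chr1:9897127-9897273 lay in the coding part of the last of its 6 exons. Another of 439 bp at chr1:9895993-9896431 lay downstream, 436 bp past the gene end, and held the only telo-box among the 20 THSs (4.36% of THSs of similar length held at least 1). Upstream, the nearest THS was 11760 bp from the TSS, the farthest of any regulator. The promoter window of LEC2 had 12 GA matches, and 0.197% of all promoters had at least as many. Of these, 3 lay in the 250 bp upstream and the other 9 in the first 29 bp after the TSS, with a longest run of 18 bp that 0.383% of promoters matched in length (105 of 27444). No THS covered them.

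ABI3 (chr3:8997370-9001185, plus strand, 3816 bp), which carries the ABA response of the seed, had no THS in the gene body or upstream of it within 3 kb. Its only THS, of 466 bp at chr3:9001659-9002124, began 474 bp past the gene end and was nearer to the TSS of the neighbour TMKL1, a receptor kinase-like gene, at 1445 bp. A THS of 912 bp lay just beyond the upstream limit, at chr3:8993248-8994159, 3211 to 4122 bp from the TSS. It is not counted among the 20. The 3 B3-domain genes thus showed a THS across the TSS, at the 3′ end, and in the flank alone.

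ABI5 (chr2:15204659-15207636, minus strand, 2978 bp), a leucine zipper factor that arrests growth of the germinated embryo under ABA, had a THS of 282 bp that spanned the TSS, at chr2:15207516-15207797. It ran from 161 bp upstream to 120 bp downstream. A second THS of 163 bp, at chr2:15208382-15208544, lay 746 to 908 bp upstream over the tRNA gene AT2G36280 and the 3′ end of AT2G36290. The ABI5 sequence shows 3 G-boxes, at 84 to 89, 95 to 100 and 141 to 146 bp upstream. A G-box was present in 15.4% of THSs of similar length, and 0.106% of all promoters held 3 or more. ABI5 proteins bind ABA response elements, which share the ACGTG core of the G-box. Annotated ABI5 transcripts start at 0, 54 and 976 bp from the outermost TSS. The THS across the TSS covers the starts at 0 and 54 bp and not the one at 976 bp.

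ABI4 (chr2:16796247-16797585, minus strand, 1339 bp), an AP2-domain factor of ABA and sugar responses with a single exon, had 3 THSs, all upstream. The nearest lay within the 1 kb upstream of the TSS. The second, of 311 bp at chr2:16799223-16799533, lay 1638 to 1948 bp upstream and was 639 bp from the start of the microRNA gene MIR5662. The third, of 222 bp at chr2:16800013-16800234, lay 2428 to 2649 bp upstream, with the nearest annotated TSS, that of AT2G09125, 655 bp away. It held an RY core, as did 12.1% of THSs of similar length. No other regulator had 3 THSs within 3 kb upstream. The annotated coding start of ABI4 lies 0 bp from the TSS, so its distances count from the coding start and no 5′ UTR is annotated.

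WRI1 (chr3:20114488-20118745, plus strand, 4258 bp), the AP2-domain activator of fatty acid synthesis, had the longest THS of the 20. It covered 717 bp at chr3:20116945-20117661, and 6.01% of all THSs were as long. It lay wholly inside an intron of 1640 bp that all 5 annotated transcripts share, 2457 to 3173 bp downstream of the outermost TSS. The nearest THS upstream was 3599 bp from that TSS, outside the window. The divergent neighbour AT3G54310 starts 1544 bp upstream of WRI1, inside the window, and no THS lay over that start. Annotated transcripts start at 0, 196, 724 and 819 bp, all of them upstream of this intron. The intronic sequence held 2 G-boxes, at 2486 to 2491 and 2645 to 2650 bp, and 31.9% of THSs of similar length held at least 1. A pair of GA runs followed the second G-box, and 51.3% of THSs of similar length held a GA repeat.

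DOG1 (chr5:18589418-18591506, minus strand, 2089 bp), the regulator of dormancy, had the most THSs and the largest share of its window covered. Of all protein-coding genes, 98.7% had fewer THSs and 96.7% a smaller share. The upstream THS, of 411 bp at chr5:18592747-18593157, lay 1241 to 1651 bp before the TSS, outside the 1 kb that defines the promoter here. It held 3 ABRE cores outside any G-box, shown in the upstream sequence, and 50.6% of THSs of similar length held an ABRE core. Another 3 THSs lay in the gene, all in its 3′ part. The 94-bp THS at chr5:18590232-18590325 lay in exon 2. It was wholly coding in some annotated transcripts and reached into the following intron in others. It held an RY core (in 7.66% of THSs of similar length) and a GA repeat (in 11.4%). After a gap of 19 bp came a THS of 162 bp at chr5:18590051-18590212, which is wholly intronic in 2 of the 6 annotated transcripts and wholly or partly UTR in others. At 25.3% it had the lowest GC content of the 20. The third, of 255 bp at chr5:18589501-18589755, covered up to 74 bp of coding sequence, with the rest UTR or intron depending on the transcript. It held a further RY core, as did 14.6% of THSs of similar length, and stopped 83 bp before the gene end. The fifth THS, of 390 bp at chr5:18588614-18589003, lay downstream over the TSS of CIPK20, a protein kinase gene on the same strand. Of the 5, DOG1 had the nearest protein-coding TSS for 2 and CIPK20 for 3. As background, DOG1 is known to produce an antisense transcript from its 3′ part, and the list does not carry strand.

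**Figure D3:**
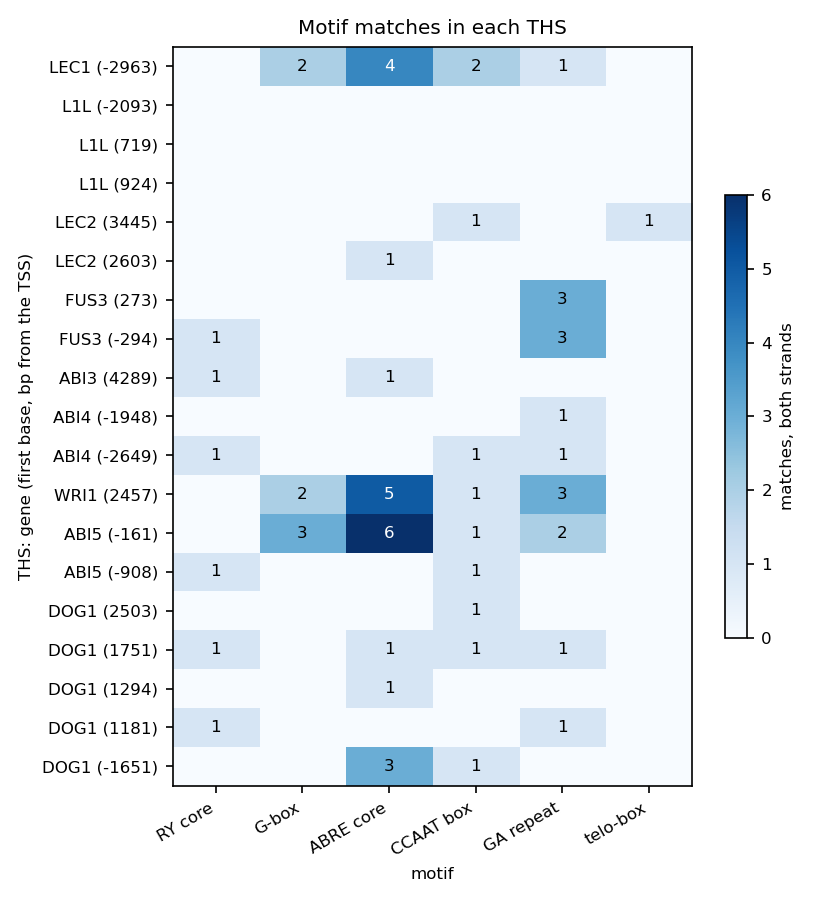
Number of matches on both strands to each of 6 motifs in 19 of the 20 THSs (all but the promoter THS of ABI4), which are named by gene and by the position of their first base in bp from the TSS (negative upstream). G-boxes fell in 3 THSs, those of LEC1, WRI1 and ABI5, and RY cores fell singly in 6.

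Over the 20 THSs together, 6 held an RY core (1 match each), at FUS3, ABI3, ABI5, ABI4 and in 2 of the 5 of DOG1. The share of THSs of similar length that hold the motif, summed over the 20, gives 3.01. G-boxes fell in 3 THSs against a sum of 2.83, with 7 matches. ABRE cores fell in 8 THSs against a sum of 7.11, with 22 matches, of which 8 lay outside G-boxes. GA repeats, in 16 matches, fell in 9 THSs against a sum of 5.04, and CCAAT boxes fell in 10 against 9.74. Of all THSs, 16.6% held an RY core, 15.5% a G-box, 38.0% an ABRE core, 52.1% a CCAAT box, 27.3% a GA repeat and 3.22% a telo-box. In promoters, RY cores were matched at LEC1 and FUS3 (9.72% of all promoters), a G-box at ABI5 alone (7.68%), and GA repeats at 7 of the 9, all but DOG1 and WRI1 (29.2%). CCAAT boxes were matched in 4 of the 9 promoters (51.6% of all). These matches are letters in a window and were neither tested nor tied to binding.

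Other genes were read in the same way, from lists of structural relatives, of network regulators and partners, and of ABA signalling genes. The lists hold selected genes and are not complete families. Of 22 structural relatives, 15 (68.2%) had a promoter THS, against 3 of the 9 regulators and 47.6% of all genes. These are relatives of LEC1, L1L, WRI1, ABI5 and DOG1 only. Of those regulators, ABI5 alone had a promoter THS. This list held no relatives of LEC2, FUS3, ABI3 or ABI4, so the relatives and the 9 regulators are not matched sets. The B3-domain repressors VAL1 and VAL2 were placed in the list of network regulators instead. Among the NF-YB relatives of LEC1 and L1L, the count with a promoter THS was 5 of 8, and NF-YB7 had no THS in its window. Among the AP2-domain relatives of WRI1 it was 1 of 2 (50%). Among the leucine zipper relatives of ABI5 it was 5 of 7, and among 5 loci listed as relatives of DOG1 it was 4, with AT4G18680 and AT4G18690 sharing their 2 THSs. The relatives with most bases in THSs were ABF3 (1568 bp), an ABA response factor, AT4G18650 (1511 bp), AT3G14880 (1289 bp) and WRI4 (1251 bp), an activator of wax synthesis. All 4 of these exceeded 8 of the regulators, and the last 2 lay below DOG1 at 1312 bp.

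Of 17 regulators and partners of the network, 11 (64.7%) had a promoter THS. They included 6 of 9 repressors, 3 of 5 activators and 2 of 3 leucine zipper partners. The chromatin remodeller PKL (1362 bp), the B3 repressor VAL2 (1098 bp), the AP2 activator BBM (783 bp) and ASIL2 (778 bp), a trihelix repressor, had the most bases. The histone deacetylase gene HDA6 and MYB115 had no THS in their windows. Of 17 listed ABA perception and signalling genes, 14 (82.4%) had a promoter THS, with 5 of 8 listed receptors, 6 of 6 listed phosphatases and 3 of 3 listed kinases. The receptor PYL5 had the most bases (1784 bp, 32.2% of its window), followed by the phosphatase ABI1 (1505 bp), the receptor PYL8 (1339 bp) and the phosphatase AHG3 (1188 bp). The difference between these lists and the 9 regulators is given as counts and was not tested.

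**Figure D4:**
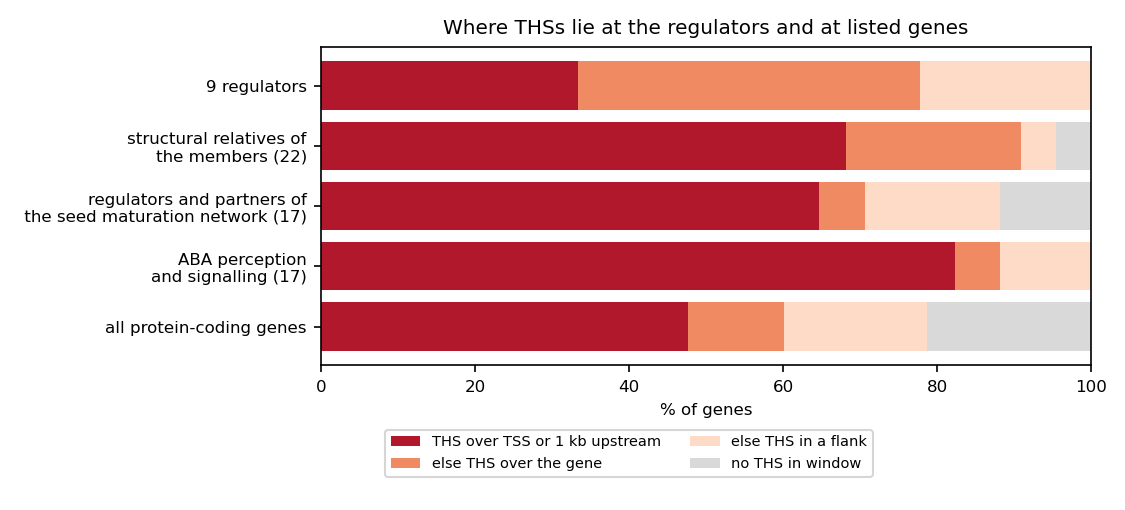
Percentage of genes in each list by where their THSs lie: at the promoter (TSS and 1 kb before it), otherwise over the gene, otherwise in a flank, or no THS in the window (numbers of genes in parentheses). A promoter THS was present at 3 of the 9 regulators, 15 of 22 relatives, 11 of 17 network genes, 14 of 17 ABA genes and 47.6% of all protein-coding genes. The relatives are those of LEC1, L1L, WRI1, ABI5 and DOG1 only.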

How the data were processed

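Per the submitters' processing notes and the study's methods, the authors used Trimmomatic for trimming and Bowtie for mapping to TAIR10 (organelle genomes left out), discarded duplicates with Picard and reads in regions of excessive coverage with SAMtools, and called peaks in each replicate with MACS2 (versions not given in the sources used here). Peaks of the 2 replicates of a genotype were intersected and genotypes were merged. Intersection can leave short pieces, and the merge keeps a region open in any genotype. The study also describes a filter on low signal. This list is longer than the filtered one it describes and so is not that set, and regions of low signal may be among those counted here. The deposited list has 3 columns (chromosome, start, end).

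Regions were placed with Python 3.11.15 and numpy 2.4.6 on the RefSeq TAIR10.1 annotation. Every region lay within its chromosome lengths. Coordinates count from 1, and an overlap of 1 base counted. Motifs were searched on both strands with overlapping matches counted, in THSs and in 300-bp promoters, and compared with THSs within 10% of the length. In the 9 windows, at most 0.849% of 32-bp words recurred elsewhere in the genome. Scripts were checked on simulated regions. Of 56 listed genes, 51 were named in the annotation and 5 are given by locus.

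The genes named were the 9 regulators with all their THSs, genes whose TSS lay in a window or was nearest to a THS, and, from each list, up to 4 genes with most covered bases and up to 4 with no THS. The sequence of the promoter THS of ABI4 is not reported here. Members and lists were chosen with earlier results of these data known, so no test was run. Alternatives were a minimum length of 200 bp, merging across gaps under 150 bp, midpoint or 50% overlap, other windows, other upstream limits, assignment by nearest TSS and, chosen after seeing the data, the innermost transcript start.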

Additional observations from a re-analysis of the deposited data

How the results depend on the processing

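The list is a merge of all samples, so no replicate could be left out. No paired analysis was possible because the list has no column per sample. Of 37 alternatives for the 5 summed results, 32 stayed within 1.5 times of the reported value. Promoter THSs were found at 5 regulators instead of 3 with 2 kb upstream (57.4% of all genes), adding DOG1 and L1L, and at 2 with regions of at least 200 bp only (36.8%), where ABI4 dropped out. That minimum length also left LEC2 and L1L without a THS over the gene. The 20 THSs became 12 with regions of at least 200 bp only, and 12 with a fixed window from 3 kb upstream to 1 kb downstream of the TSS. The 5587 covered bases became 2917 with that fixed window and 3559 when only THSs nearest to the TSS of the regulator counted. The 9 regulators with a THS became 6 in the fixed window, without LEC2, ABI3 and WRI1 (69.6% of all genes), 8 with 1 kb upstream, without LEC1 (68.3%), 8 with nothing downstream, without ABI3 (73.6%), and 7 when assigned by nearest TSS, without LEC1 and ABI3. DOG1 fell from 5 THSs to 3 with the minimum length, to 2 by nearest TSS and to 1 in the fixed window. For single regulators, 130 of 162 alternatives stayed within 1.5 times and 32 gave lower values. The innermost transcript start, chosen after seeing the data, left 3 regulators with a promoter THS. The list gives no signal or depth, so a window without a THS is a window without a call.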
